A study of Mus musculus with 12 samples.

Results

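CCR4-NOT is the main cytoplasmic complex that shortens the poly(A) tails of messenger RNAs. Its transcripts were followed here in mouse myeloid progenitors that carried either 1 floxed or only intact copies of Wt1. The 9 genes described were Cnot1, Cnot2, Cnot3, Cnot4, Cnot6, Cnot6l, Cnot7, Cnot8 and Cnot10, found by their symbols among the 33924 genes of the count table. All 9 were counted often enough to be tested, among 10604 genes in all. The complex was chosen on the value of Cnot3, which was far lower in young het than in young control progenitors and moved differently with genotype in old mice. The values of Cnot3 in those comparisons are therefore given as a description without a test, and the other 8 genes were taken because they encode subunits of the same complex.

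Progenitors had been sorted from bone marrow of femurs and tibias as live, single cells positive for c-Kit and negative for Sca1 and lineage markers, and 12 libraries of 3' messenger RNA tags were counted, 3 in each of 4 groups. Controls were Mx+ Wt1+/+ and hets were Mx+ Wt1fl/+, so that the Mx transgene was shared by every group. In mouse genetics this name usually stands for Mx1-Cre, a Cre recombinase under an interferon-inducible promoter that is active in blood cells and in other tissues; the sources used here do not say how and when it was induced. The age label of the old controls and old hets also carries the word chronic and that of the young controls and young hets the word acute, neither of them explained, so that age and this condition cannot be told apart. In the labels the old libraries are numbered 1 to 6 and the young ones between 18 and 30, so age goes with library number as well. The sources used here do not say whether the 3 libraries of a group came from separate mice, and p-values measure the spread between these libraries, which may be technical. Sex-linked transcripts, given below, did show mice of both sexes in old het and in young control. Wt1 codes for a transcription factor with zinc fingers and is altered in some acute myeloid leukaemias.

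The complex is built on CNOT1, a long scaffold protein. CNOT2 and CNOT3 pair on its C-terminal part as the NOT module, CNOT10 with CNOT11 sits on its N-terminal part, and the middle holds CNOT9 and the catalytic pair. That pair is made of 1 exonuclease of the CAF1 type, CNOT7 or CNOT8, and 1 of the CCR4 type, CNOT6 or CNOT6L. CNOT4 is a RING-type ubiquitin ligase that is only loosely bound in mammals. Loss of the tail generally starts the decay of a messenger RNA, and proteins such as the Pumilio, tristetraprolin and TNRC6 families bring the complex to chosen transcripts. CNOT3 is recurrently mutated in T-cell acute lymphoblastic leukaemia.

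The promoter sequences of Cnot3 and Cnot6 are shown because the data turn on Cnot3 standing apart from its partners and Cnot6 was the other subunit with the same short motif. Each line gives the 250 bases before the start site, 5′ to 3′ on the gene's strand, from RefSeq on build GRCm38.p6, with every CCAAT in capitals. The Cnot3 stretch is chr7:3645019-3645268 on the plus strand, and the Cnot6 stretch is chr11:49712723-49712972 on the minus strand.
Cnot3: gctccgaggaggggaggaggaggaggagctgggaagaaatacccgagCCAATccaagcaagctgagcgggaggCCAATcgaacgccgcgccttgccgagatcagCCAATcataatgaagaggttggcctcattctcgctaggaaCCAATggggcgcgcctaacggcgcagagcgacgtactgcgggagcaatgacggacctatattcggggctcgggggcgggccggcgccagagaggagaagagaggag
Cnot6: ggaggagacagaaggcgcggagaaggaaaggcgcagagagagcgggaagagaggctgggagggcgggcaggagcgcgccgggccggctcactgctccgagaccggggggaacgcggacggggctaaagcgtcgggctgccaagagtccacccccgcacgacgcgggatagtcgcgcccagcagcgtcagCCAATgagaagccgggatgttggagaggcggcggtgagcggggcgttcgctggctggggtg
Promoter windows were found for 7 of the 9 genes, 13 windows in all, under the symbols Cnot2, Cnot3, Cnot4, Cnot6, Cnot6l, Cnot8 and Cnot10; Cnot1 and Cnot7 are named only. CCAAT, searched on both strands, stood 4 times in the Cnot3 window, with its first base at positions -203, -177, -146 and -106 from the start, and 1 time in the Cnot6 window, at -61. None of the windows of the other 5 genes held it. At least 1 CCAAT stood in 33.85% of 32851 windows of the same length over all genes, and at least 4 stood in 0.84%. GCGGGGGCG, a motif shared by EGR factors and WT1, was in 0 of the 13 windows (2.572% of all windows). GGGCGG, the core of the SP family's motif, was in 10 of the 13 windows and in at least 1 window of all 7 genes (32.742% of all windows). These shares are not like for like. The windows of the complex had 33.2 to 82.4% G and C, most of them above the median of 52.4% over all windows. Some windows of Cnot6l and Cnot8 overlap, so a site can be counted again, and genes with several windows are set beside a share per window. A longer WT1 motif, an NRF1 motif and the TATA box were also searched and were in 0 of the 13 windows. Over all windows they were in 0.052%, 0.782% and 12.368%. The ETS core was in 2 of the 13 windows (12.03% of all windows). All these motifs were searched after the expression values were known, the matches are letters in a window and not binding sites, and nothing in these data measured binding.

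Total counts ran from 645460 to 9645502 per library, lowest in young control 2, and 1 count stood for 0.0916 to 1.7 CPM, the scale of counts per library size used for levels here. Wt1 itself was counted 1 to 23 times per library, too few to be tested, and a 3' tag outside the deleted part would not check the genotype. Old control 1 and young control 3 stood apart: old control 1 was the deepest library and held 762 counts of Ly6a, the gene of the excluded marker Sca1, while young control 3 carried the sex-linked transcripts of the young hets and is numbered 18 in the labels, beside their 19 to 21 and not beside the 29 and 30 of the other young controls. Results are therefore also given without this pair. All 16 progenitor markers, Kit, Cd34 and Mpo among them, were counted in every library. Their summed level was 7428 to 13304 CPM in old control, 7125 to 14752 in old het, 4193 to 7718 in young control and 8845 to 9200 in young het. Mpo was the largest part of this sum in every group, with means of 4746 CPM in old control and 2711 in young control. Of the 16 markers 11 had a higher fitted level in old than in young control and 5 a lower one. Klf1, for example, was 46.2 CPM in old and 117 in young control on average, and Kit was 190 in both. The 20 markers of cells the sort should have removed summed to 448 to 984 CPM in old control, 548 to 634 in old het, 2254 to 5276 in young control and 1603 to 3431 in young het, led in the young groups by the myeloid genes Camp and Itgam. In old control Camp was followed by Nkg7, of cytotoxic lymphocytes, at a mean of 110 CPM, which was 27.3 CPM in young control. Nkg7 was counted in every library, but the lymphocyte genes Cd8a and Klrb1c did not go with it. They were at 0 in 10 libraries each, with means of 3.85 and 3.11 CPM in old control. Those means came from old control 1 alone, which had 126 and 102 counts of them, and the 55 counts of Cd3e were also in that library. Ly6g was at 0 in all 12 libraries, and 6 to 12 of the 20 markers were at 0 in each library, with the T-cell gene Cd3e at 0 in 11 libraries and the B-cell gene Cd79a also in 11. The part of these differences in marker levels in the results was not tested. In a bulk sample, fewer cells of a type and less RNA per cell cannot be told apart.

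Cnot3 transcripts were high in young control progenitors and low in the other 3 groups. Cnot3 stood at 354, 597 and 310 CPM in young controls 1 to 3, and at 107, 71.9 and 56.1 CPM in young hets 1 to 3. It was 78.2, 77.3 and 65.9 CPM in old controls 1 to 3 and 150, 61.3 and 142 CPM in old hets 1 to 3. The lowest young control was thus above every other library, while old control, young het and old het overlapped. The means were 420 ± 155 CPM (SD, n = 3) in young control, 118 ± 49.2 in old het, 78.2 ± 25.8 in young het and 73.8 ± 6.87 in old control, and the last 3 of these did not differ beyond their spread. The fitted log2 difference between young het and young control was -2.42 (SE 0.39), the value that led to the choice of the complex, and ran from -2.71 to -2.11 with any 1 library left out. Without old control 1 and young control 3 it was -2.60. Behind these levels were 351 to 466 counts in the young controls and 149 or more in every library.

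**Figure D1:**
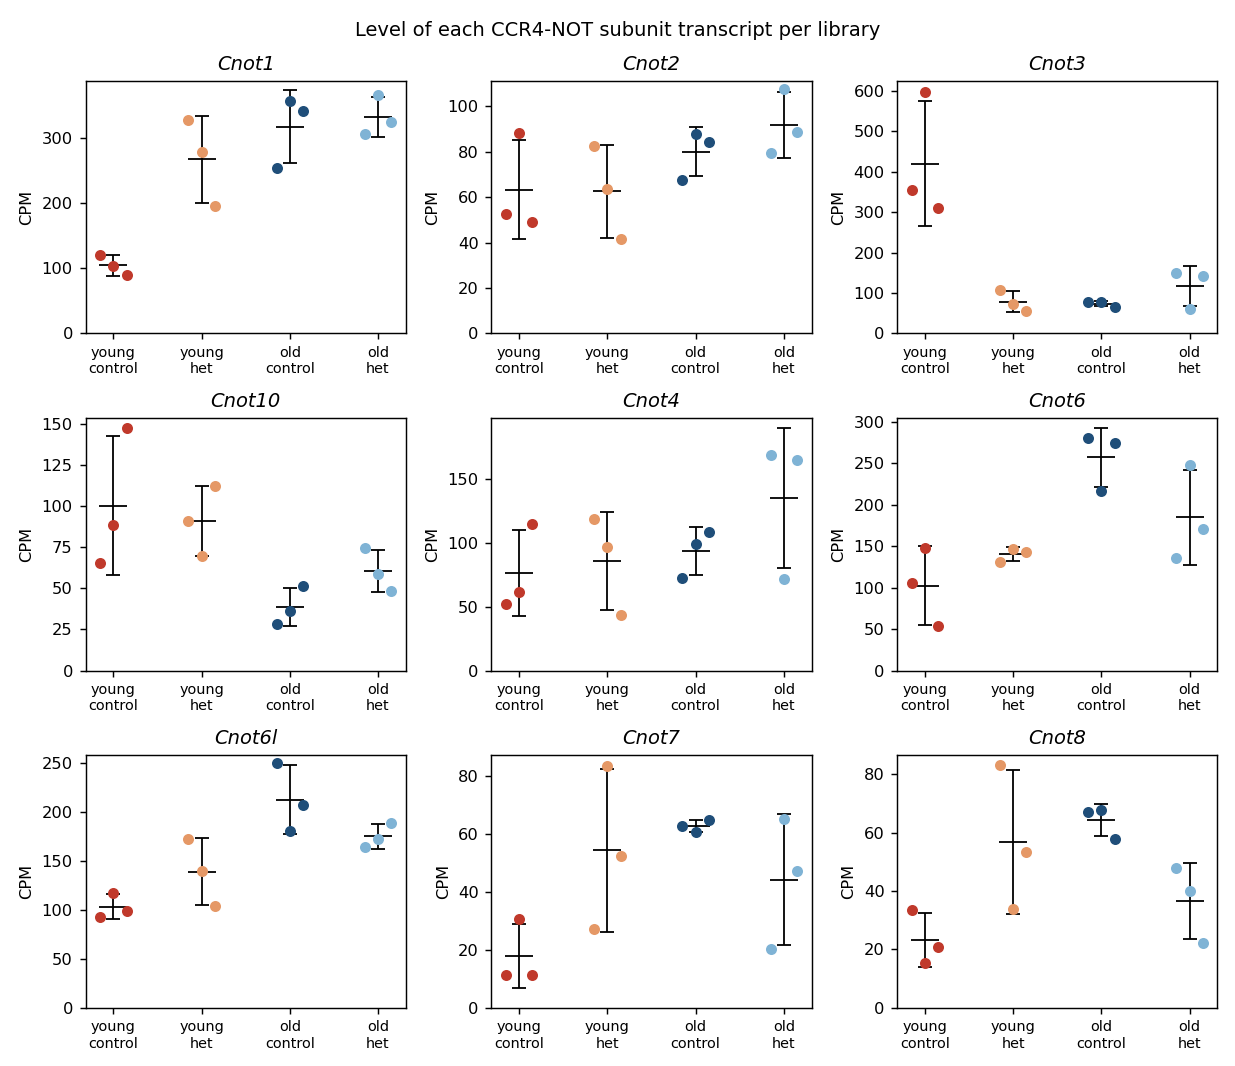
Level of each of the 9 subunit transcripts in CPM (linear axis) in the 12 libraries, by group; points are libraries, the wide bar is the mean and the narrow bars mark ± 1 SD (n = 3). Cnot3 is high in the 3 young controls (310 to 597 CPM) and at 150 CPM or below elsewhere, while Cnot1 is lowest in the 3 young controls (89.4 to 121 CPM).

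Summed over the other 8 subunits, the level was lowest in young control, where Cnot3 was highest, although Cnot10 among them was high there too. The sum was 534, 653 and 585 CPM in young controls 1 to 3, and 1034, 912 and 747 CPM in young hets 1 to 3. It was 1083 to 1191 CPM in old control and 997 to 1130 CPM in old het, so that the 3 young controls lay below all 9 other libraries. Cnot3 made up 39.9, 47.8 and 34.6% of the counts of the 9 subunits in young controls 1 to 3, against 6.99 to 9.34% in young het, 5.24 to 6.73% in old control and 5.15 to 13.1% in old het. For every 100 counts of its 8 partners there were 70.2 ± 19.6 counts of Cnot3 in young control (SD, n = 3), 8.57 ± 1.51 in young het, 6.58 ± 0.91 in old control and 11.3 ± 5.16 in old het. In level Cnot3 was the first of the 9 in young control and the fifth or sixth in the other groups, where Cnot1 was first. A 3' tag library counts about 1 tag per transcript whatever its length, so these are shares of tags, which also depend on how well each transcript's end is captured. Since the complex was chosen on the value of Cnot3, which enters these shares, the shares are a description.

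**Figure D2:**
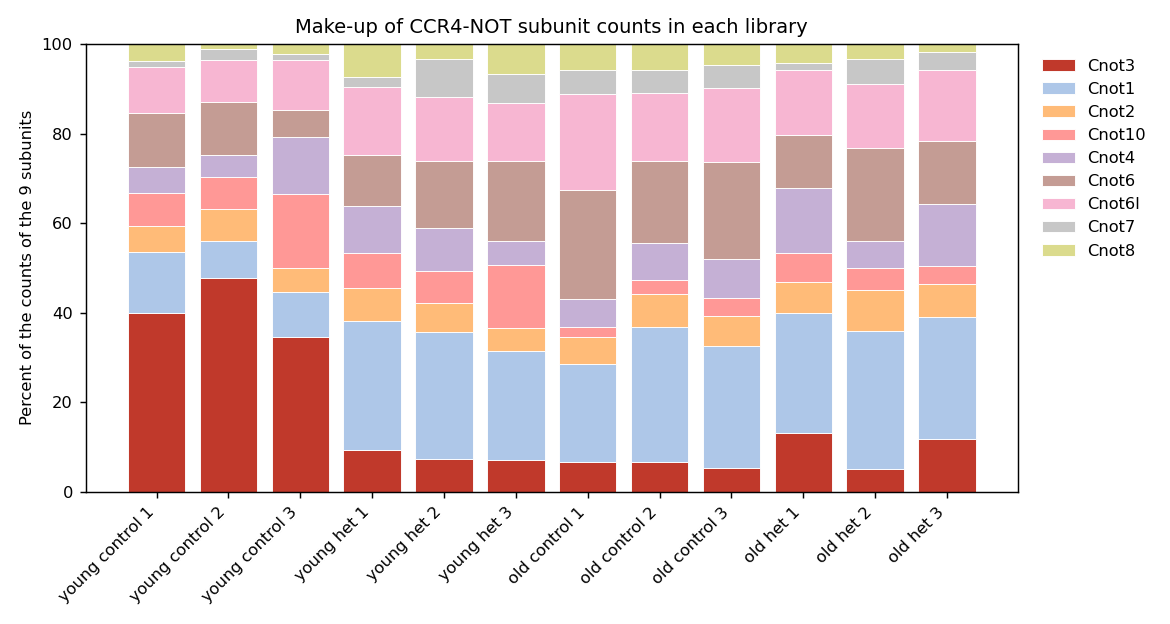
Make-up of the counts of the 9 subunits in each of the 12 libraries (bars, percent of the counts of the 9 genes). Cnot3, the lowest segment, takes 34.6 to 47.8% in the 3 young controls and 13.1% or less in each of the other 9 libraries.

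Cnot1, the scaffold, was lowest in young control and high in the other 3 groups. It stood at 121, 104 and 89.4 CPM in young controls 1 to 3 and at 329, 279 and 196 CPM in young hets 1 to 3. Old controls 1 to 3 had 254, 358 and 342 CPM of it, old hets 1 to 3 had 306, 367 and 326 CPM. All 3 young controls were below all 9 other libraries, and the other 3 groups overlapped. Between young het and young control the log2 difference was 1.35 (SE 0.31), a level 2.56 times as high, which missed the threshold over all genes (edgeR quasi-likelihood test, adjusted p = 0.0541). Over the alternatives its adjusted p ran from 0.00249 to 0.437. It was past the threshold with no filter on low counts (0.0208), with a minimum count of 30 (0.0468), by DESeq2 (0.00249), without old control 1 and young control 3 (0.0491) and without old het 2 (0.0369).

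Cnot2, which pairs with Cnot3 in the NOT module, showed no difference that passed in any comparison. It was 52.4, 88.4 and 48.9 CPM in young controls 1 to 3 and 82.3, 63.7 and 41.6 CPM in young hets 1 to 3. The groups overlapped fully, with means of 63.2 ± 21.9 and 62.5 ± 20.4 CPM (SD, n = 3 each). Its log2 difference was -0.00064 (95% interval -0.79 to 0.79, adjusted p = 0.999). In old control it was 67.7 to 87.9 CPM and in old het 79.3 to 108 CPM.

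Cnot10, of the module on the N-terminal part of the scaffold, was the subunit whose levels over the groups came nearest to those of Cnot3. It stood at 65.3, 88.4 and 147 CPM in young controls 1 to 3 and at 91.1, 69.7 and 112 CPM in young hets 1 to 3, which overlapped. Old controls 1 to 3 had 28.3, 36.5 and 51.3 CPM and old hets 1 to 3 had 74.4, 58.9 and 48.6 CPM. The old controls were thus below every young library. Between young het and young control its log2 difference was -0.15 (95% interval -0.95 to 0.66, adjusted p = 0.907). Cnot4, the ubiquitin ligase, was 52.4, 61.2 and 115 CPM in young controls 1 to 3 and 118, 96.4 and 43.5 CPM in young hets 1 to 3, a log2 difference of 0.17 (95% interval -0.73 to 1.06, adjusted p = 0.905). In old control it was 72.7 to 109 CPM and in old het 71.7 to 169 CPM, so all 4 groups overlapped.

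The 4 catalytic subunits were all lowest on average in young control. Cnot7 was 11.4, 30.6 and 11.5 CPM in young controls 1 to 3, from 15 to 18 counts per library, and 27.2, 83.5 and 52.5 CPM in young hets 1 to 3. It was 60.8 to 65 CPM in old control and 20.2 to 65.3 CPM in old het. Young control 2 lay above young het 1, so the young groups overlapped. Cnot8, the paralog of Cnot7, was 33.4, 15.3 and 20.6 CPM in young controls 1 to 3, from 9 to 44 counts, and 83, 33.9 and 53.4 CPM in young hets 1 to 3. These young groups did not overlap, but young control 1 and young het 2 differed by less than 1 CPM. Neither difference passed over all genes: the log2 value was 1.69 for Cnot7 (95% interval 0.56 to 2.82, adjusted p = 0.163) and 1.26 for Cnot8 (95% interval 0.30 to 2.22, adjusted p = 0.216).

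Cnot6 and Cnot6l, the CCR4-type exonucleases, were more abundant in tags than the CAF1-type pair in every group. Cnot6 was 106, 148 and 53.5 CPM in young controls 1 to 3 and 130, 146 and 143 CPM in young hets 1 to 3, with young control 2 above all 3 hets. Cnot6l was 92.6, 117 and 99.4 CPM in young controls 1 to 3 and 173, 140 and 104 CPM in young hets 1 to 3, with young het 3 inside the range of the controls. The log2 differences were 0.47 for Cnot6 (95% interval -0.27 to 1.21, adjusted p = 0.596) and 0.43 for Cnot6l (95% interval -0.20 to 1.07, adjusted p = 0.561). That of Cnot6 was 0.16 without young control 3, 0.79 without young control 2 and 1.09 with Xist as a covariate, and that of Cnot6l was 0.24 without young het 1.

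In the young comparison, then, none of the 8 partners of Cnot3 passed the edgeR test in either direction. The threshold was an adjusted p of 0.05, which 0.424% of all tested genes passed and 0.245% passed as lower in het. At an unadjusted p under 0.05 there were 3 of the 8 and 1488 of the 10604 genes; DESeq2, which passed 3.35% of all tested genes, called Cnot1 among the 8, and limma-voom, which passed 0.217%, called none of them. Young het and young control libraries did not overlap for Cnot1 and Cnot8, both higher in het, and for Cnot3, lower in het, beside 16.8% of all tested genes. The median log2 difference of the 8 was 0.45, against 0.08 over all tested genes, with 6 of them positive and 2 negative. A low level of Cnot3 in young het was not accompanied by a lower level of any partner that passed the test.

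In old mice no subunit passed between the genotypes. Old het against old control gave 0 of 9 subunits past the threshold by edgeR, and 0 by DESeq2 and limma-voom; over all genes the share was 0%, with 380 genes and 0 subunits at an unadjusted p under 0.05. Cnot3 had a log2 difference of 0.67 (SE 0.37), the opposite sign to young mice, with old het 2 below all 3 old controls and old hets 1 and 3 above them. This value is a description, since it is part of the difference between the ages that also led to the choice. Cnot8 was the only subunit whose old groups did not overlap, at 47.7, 40.1 and 22.3 CPM in old hets 1 to 3 and 67, 67.7 and 57.9 CPM in old controls 1 to 3, where 11.1% of all tested genes did not overlap. Its log2 difference was -0.81 (95% interval -1.74 to 0.12, adjusted p = 0.999). The other 7 ranged from -0.50 for Cnot7 to 0.65 for Cnot10, and the median of the 8 partners was -0.11 beside -0.05 over all tested genes.

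The difference between the genotype effects at the 2 ages was tested in the same fit. For Cnot3, where it was another value behind the choice, the effect in old minus that in young was 3.09 (SE 0.54), and 3.31 without old control 1 and young control 3. None of the 8 partners passed, where 0.0849% of all tested genes did. The most negative values were those of the CAF1-type exonucleases, Cnot7 at -2.19 (95% interval -3.72 to -0.65, adjusted p = 0.206) and Cnot8 at -2.07 (95% interval -3.41 to -0.74, adjusted p = 0.175), followed by Cnot1 at -1.29 (95% interval -2.17 to -0.40, adjusted p = 0.201). At an unadjusted p under 0.05 there were 3 of the 8 partners and 1356 of all tested genes.

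Old and young controls differed in 5 of the 8 partners. Of the 8 partners 4 were higher in old control and passed the edgeR test, 1 was lower and passed, and 3 did not pass, where 6.98% of all tested genes passed. These values share the young control libraries with the young het comparison, so they are no separate evidence on those libraries. Cnot1 rose by a log2 value of 1.60 (SE 0.31, adjusted p = 0.00446), from 105 ± 15.7 CPM in young control to 318 ± 56 in old control (SD, n = 3 each). Cnot7 rose by 1.90 (SE 0.55, adjusted p = 0.0411), from 17.8 ± 11.1 to 62.9 ± 2.09 CPM, and Cnot6 by 1.34 (SE 0.36, adjusted p = 0.0299), from 102 ± 47.3 to 257 ± 35.2 CPM. Cnot6l rose by 1.05 (SE 0.31, adjusted p = 0.0445), from 103 ± 12.7 to 213 ± 35.1 CPM. Cnot10 fell by 1.39 (SE 0.40, adjusted p = 0.0398), from 100.4 ± 42.4 to 38.7 ± 11.7 CPM.

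Old and young control libraries did not overlap for these 5 genes, for Cnot8 and for Cnot3, as was so for 31.2% of all tested genes. Cnot8 had a log2 difference of 1.45 (adjusted p = 0.0626; 0.0389 by DESeq2, which passed 12.2% of all tested genes), Cnot2 of 0.36 (adjusted p = 0.608) and Cnot4 of 0.29 (adjusted p = 0.729). For Cnot3 the difference was -2.50 (SE 0.39), with no test because the same young controls chose it. The median of the 8 partners was 1.20, beside 0.22 over all tested genes.

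Of these 5 calls that of Cnot1 held with any 1 library left out, and the other 4 were near the threshold. Cnot1 kept an adjusted p from 0.00247 to 0.0260 when any 1 of the 12 libraries was left out. By limma-voom, which passed 4.88% of all tested genes, Cnot6l (adjusted p = 0.0738) and Cnot7 (0.111) missed the threshold, and Cnot6l missed it with median-of-ratios scaling (0.0584) and with no filter on low counts (0.0906). Cnot6, Cnot6l, Cnot7 and Cnot10 missed it without old control 1 (adjusted p = 0.0896, 0.154, 0.0957 and 0.162, in that order), without old control 2 (0.0532, 0.0789, 0.0891 and 0.123), without old control 3 (0.0797, 0.1003, 0.0904 and 0.0561) and without young control 3 (0.0905, 0.0904, 0.113 and 0.125). Without young control 1 those of Cnot6, Cnot6l and Cnot7 were 0.0795, 0.156 and 0.156, and without old het 3 they were 0.0505, 0.0887 and 0.0605. Cnot6l was also lost without young control 2 (0.0998), old het 1 (0.0781) and young het 2 (0.0627), Cnot7 without young het 3 (0.0506) and Cnot10 without young het 2 (0.052). Without old control 1 and young control 3 together, Cnot1 was the one partner that passed (adjusted p = 0.0136), and those 4 had 0.150, 0.167, 0.167 and 0.319. The log2 values moved little in most of these fits: with any 1 library left out they ran from 0.98 to 1.60 for Cnot6, 0.91 to 1.16 for Cnot6l, 1.59 to 2.37 for Cnot7 and -1.69 to -1.04 for Cnot10. The lowest of Cnot6 and the weakest of Cnot10 were those without young control 3.

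Old het and young het, the comparison with no control library, gave 0 of 9 subunits past the threshold, where 0.00943% of all tested genes passed. DESeq2, which passed 0.141% of all tested genes, and limma-voom, which passed 0.00943%, also called 0 of the 9, and at an unadjusted p under 0.05 there were 0 subunits and 666 genes. Their log2 differences ran from -0.63 for Cnot8 to 0.65 for Cnot4, and no subunit's libraries were apart, where 14% of all tested genes did not overlap. Cnot3 had a difference of 0.59 (95% interval -0.19 to 1.37, adjusted p = 0.87).

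**Figure D3:**
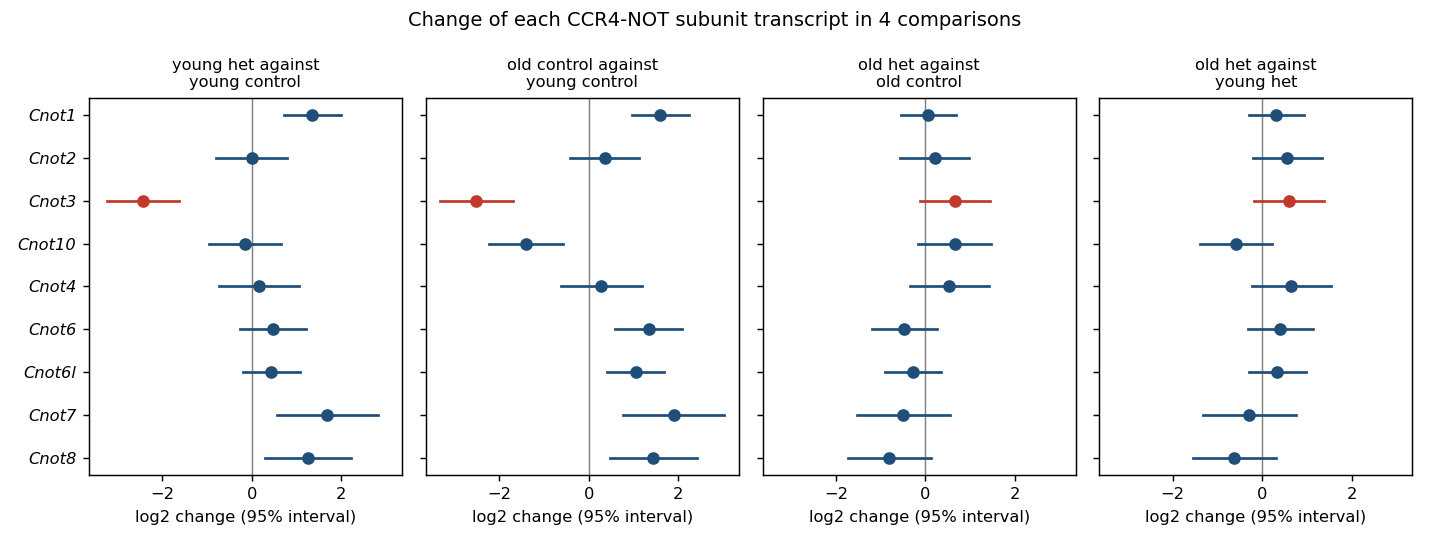
Log2 change of each subunit in 4 comparisons (points, horizontal axis), with the 95% interval of the fit over all genes (lines); Cnot3 is in red, and the 2 panels on the left share the young control libraries. Cnot3 lies at -2.42 and -2.50 against young control, where Cnot1 lies at 1.35 and 1.60, and the 2 panels without young control hold no subunit past the threshold.

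Of the further subunits, the table lists CNOT9 as Rqcd1 and CNOT11 as D1Bwg0212e, by the synonyms of RefSeq, and Tnks1bp1 under its own name. Rqcd1, whose protein holds the tryptophan-binding pockets used by TNRC6 proteins, was 28.1 ± 5.11 CPM in young control and 46.4 ± 16.2 in young het (SD, n = 3 each), a log2 difference of 0.74 (adjusted p = 0.488). D1Bwg0212e, the partner of Cnot10, was 40.2, 42.5 and 75.7 CPM in young controls 1 to 3 and 78.3, 95.9 and 95.6 CPM in young hets 1 to 3. Its groups did not overlap, and its log2 difference of 0.76 did not pass (SE 0.36, adjusted p = 0.348). Neither passed in any of the other comparisons. Tnks1bp1 was too low to be tested, with 0 to 26 counts per library.

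Genes that act with the complex in messenger RNA decay were read from 5 lists. These held 22 tested of 29 recruiters and adaptors, 7 of 9 other deadenylases, 6 of 8 poly(A)-binding factors, 20 of 20 genes of decapping and 5'-3' decay, and 16 of 17 of the 3'-5' exosome and Ski complex. With all 12 libraries none of these passed in either direction between young het and young control, and their medians, from -0.18 to 0.14 on the log2 scale, lay on either side of the 0.08 over all tested genes. The smallest p among the recruiters was that of Pum2, an RNA-binding protein of the Pumilio family, at 84.9 ± 27.4 CPM in young control and 181 ± 44 in young het (SD, n = 3 each), a log2 difference of 1.08 (adjusted p = 0.135). Without old control 1 and young control 3 Pum2 passed, at 1.35 (adjusted p = 0.0469). Among the others it was Parn, a poly(A) nuclease, at -0.47 (adjusted p = 0.686), Paip2b, an inhibitor of poly(A)-binding protein, at -2.62 (adjusted p = 0.492), Dcp1a, a cofactor of decapping, at -3.12 (adjusted p = 0.293) and Dis3, a nuclease of the exosome, at -1.05 (adjusted p = 0.264). Dcp1a and Paip2b were at 10.2 and 3.16 CPM on average in young control and at 1.09 and 0.455 CPM in young het, a few counts per library.

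Between old and young control 3 genes of these lists passed, 1 higher and 2 lower. Pum2 rose by a log2 value of 1.16 (SE 0.33, adjusted p = 0.0375). Zfp36, which encodes tristetraprolin, fell by 2.30 (SE 0.61, adjusted p = 0.0278), from 262 to 1541 CPM in young control to 69.5 to 299 CPM in old control, ranges that overlap. Dis3 fell by 1.60 (SE 0.43, adjusted p = 0.0312), from 149 ± 53.9 to 49.3 ± 14.7 CPM (SD, n = 3 each). Pum2 missed the threshold without old control 1, 2 or 3 (adjusted p = 0.110, 0.0685 and 0.0960), young control 1 or 2 (0.127 and 0.175), old het 1 or 3 (0.0648 and 0.0750) or young het 2 (0.0509), by limma-voom (0.0796), with no filter (0.0529) and in the compared groups alone (0.0816), at log2 values from 0.88 to 1.37 with 1 library left out. Zfp36 missed it without old control 2 or 3 (0.112 and 0.107) and without young control 3 (0.164, at a log2 value of -1.32), and Dis3 without old control 1, 2 or 3 (0.137, 0.0929 and 0.0520) and young control 1 or 2 (0.0938 and 0.0738), at -1.93 to -1.38 with 1 left out. Without old control 1 and young control 3 together Dis3 also missed it (0.0549). With Xist as a covariate Zfp36 was at -1.42 (0.191), in the compared groups alone at -2.36 (0.0656), and with the share of mitochondrial ribosomal RNA as a covariate Pum2 was at 0.72 (0.632), Zfp36 at -2.95 (0.307) and Dis3 at -0.62 (0.757). In the 2 comparisons of het with control in old mice and of old het with young het, no gene of the lists passed.

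The genes whose levels over the 12 libraries were most like those of Cnot3 came from outside the complex. By Pearson's r of log2 CPM over the 12 libraries these were Nfkbia, the inhibitor of NF-kappa-B (0.98), Mnat1, a subunit of the CDK-activating kinase (0.97), Cited2, a transcriptional co-regulator (0.96), Ing5, a reader of histone marks (0.96), and Dnajc1, a co-chaperone of the endoplasmic reticulum (0.95). Predicted and non-coding genes were passed over; among the 15 highest values these were the mitochondrial tRNA mt-Tp (0.96, the fifth highest), AY036118 (0.95), and the small nucleolar RNAs U3 and Snord49b (0.94 each). Nfkbia, for example, was 1404 ± 482 CPM in young control, 326 ± 123 in young het, 264 ± 23.8 in old control and 358 ± 159 in old het (SD, n = 3 each). For the subunits r with Cnot3 was 0.39 for Cnot10, -0.04 for Cnot4, -0.12 for Cnot2, -0.57 for Cnot6l, -0.62 for Cnot6, -0.73 for Cnot8, -0.77 for Cnot7 and -0.80 for Cnot1. The 28 pairs among the other 8 subunits had a median r of 0.43. All 7 pairs of Cnot10 with them were negative, from -0.81 with Cnot6 to -0.10 with Cnot4, so a level running against the partners was not seen for Cnot3 alone. All these values describe 12 libraries that fall into 4 groups and differ in depth and RNA make-up.

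Libraries with much Cnot3 were also rich in mitochondrial ribosomal RNA. Young controls 1 to 3 gave 5.03, 8.22 and 4.35% of their counts to it, and young hets 1 to 3 gave 3.51, 3.01 and 2.999%. Old controls 1 to 3 gave 1.70, 2.38 and 2.13%, and old hets 1 to 3 gave 4.78, 1.40 and 4.75%. Old hets 1 and 3, with the high shares, had 150 and 142 CPM of Cnot3, and old het 2 had 61.3. Young controls 1 and 3, at 5.03 and 4.35%, had 354 and 310 CPM, above both of those old hets. The share of mitochondrial messenger RNA set the young controls apart from all other libraries, at 3.07 to 5.58% against 0.853 to 2.07% in young het, 0.862 to 1.08% in old control and 0.529 to 1.94% in old het, so these libraries were not alike in it. With the share as a covariate the Cnot3 difference was -1.56 between young het and young control, the difference between the ages was 1.63, and the Cnot3 difference was -1.27 between old and young control. The Cnot1 value between the young groups was 1.35 with the covariate, as without it, at an adjusted p of 0.437, and between old and young control it was 1.59 (adjusted p = 0.303). The share differs between the groups compared, and the part of the mitochondrial messenger RNA share in the results was not tested.

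**Figure D4:**
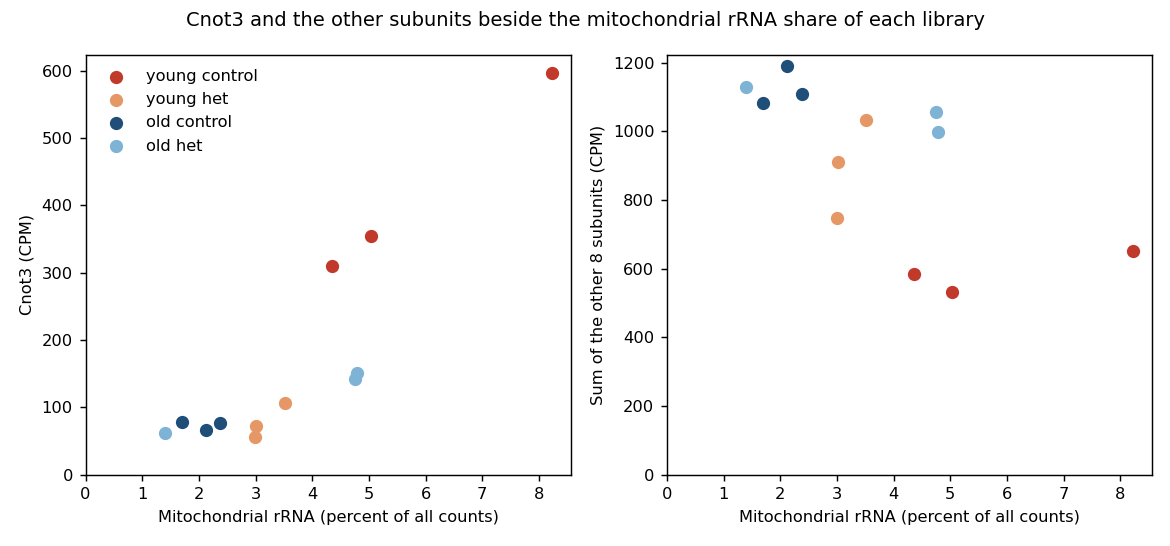
Level of Cnot3 (left) and summed level of the other 8 subunits (right), both in CPM, against the share of mitochondrial ribosomal RNA in percent of all counts; each point is 1 of the 12 libraries. Old hets 1 and 3 have shares of 4.78 and 4.75%, within the 4.35 to 8.22% of the young controls, with 150 and 142 CPM of Cnot3 against 310 CPM or more.

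Sex-linked transcripts were unevenly spread over the groups. In all 3 young hets, in young control 3 and in old het 1 Xist was at 616 to 2133 CPM with no count of the Y-linked Ddx3y, which the other 7 libraries carried. Young control 3 was thus the only young control with the sex-linked transcripts of the young hets. Sex and genotype can therefore not be fully told apart in the young libraries. Within those 5 libraries Cnot3 was 310 CPM in young control 3, 56.1 to 107 CPM in the young hets and 150 CPM in old het 1. With Xist as a covariate the young Cnot3 difference was -2.38 and that of Cnot1 was 1.52 (adjusted p = 0.0736).

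At its 3' end, where the tags lie, Cnot3 overlaps Leng1 on the opposite strand in the GENCODE annotation of GRCm38, and Cnot7 overlaps Zdhhc2 likewise. The sources used here do not say whether strand was used in counting, and reads of such pairs might be mixed. Leng1 itself had 7 to 75 counts per library and 11.8 ± 4.91 CPM in young control against 8.05 ± 3.68 in young het (SD, n = 3 each). In old control it was 5.66 ± 1.94 CPM and in old het 8.80 ± 1.41. The part of these overlaps in the counts of Cnot3 and Cnot7 was not tested. Prpf31, the neighbour before Cnot3 on the same strand, was 200 ± 16.6 CPM in young control and 225 ± 88.7 in young het.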

How the data were processed

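The deposited table holds raw counts per gene symbol, not normalized, for 12 libraries made with a Lexogen 3' kit, per the labels' protocols. Build mm9, HTSeq 0.6.1, STAR 2.4 and DESeq2 stand in the submitters' processing notes without order or role. Strand setting, annotation and molecular identifiers: not given in the sources used here.

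Samples were grouped by genotype and age labels, 3 per group, and numbered in accession order, which pairs nothing. The members and gene lists were chosen with earlier results of these data known. Genes passing filterByExpr (minimum count 10, minimum total 15) entered 1 fit of 4 groups by edgeR 4.0.16 in R 4.3.3 (TMM scaling, quasi-likelihood F test), with Benjamini-Hochberg adjustment over 10604 genes at 0.05. The SE is the change divided by the square root of F, and intervals are at 95%. CPM are against TMM-scaled totals of tested genes. Replicates differed by more than sampling noise (chi-square over degrees of freedom 5.55 to 54.5). Named genes were all members, further subunits found, list members past the threshold or with the smallest p in the young comparison, and the 5 genes most like Cnot3; some are not printed. Alternatives were DESeq2 1.42.0, limma-voom (limma 3.58.1), other scaling and filters, compared groups alone, covariates and libraries left out. The fit was tested on simulated counts. Median-of-ratios scaling moved the median of all genes by at most 0.0804 on the log2 scale.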

Additional observations from a re-analysis of the deposited data

Results flagged for a closer look

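The log2 effect of genotype on Cnot3 in old mice minus that in young mice was 3.09. It is listed because the effects at the 2 ages differed in the fit over all genes, and it is a description only. Every young het lay below every young control, and old hets 1 and 3 lay above all old controls while old het 2 lay below them. This value was among those that led to the choice of the complex and supports nothing by itself.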

How the results depend on the processing

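Each comparison was refitted under up to 21 alternatives. The number of the 9 subunits past the threshold between young het and young control was 1, Cnot3, whose values here are a description. It was 2 with no filter on low counts, with a minimum count of 30, by DESeq2 and without old control 1 and young control 3 together, Cnot1 being the second, 0 with mitochondrial rRNA as a covariate, and 0 to 2 with 1 library left out, 0 without young control 2, young het 2 or young het 3 and 2 without old het 2. The number over all tested genes moved too: 45 passed as reported, 258, 52, 355 and 241 in the first 4 of these fits, 1 with the covariate, 1, 3 and 1 without those 3 libraries and 107 without old het 2. For the difference between the ages the number was 1, again Cnot3 as a description. It was 0 by limma-voom and with the mitochondrial covariate and 0 to 1 with 1 library left out. Over all tested genes 9 passed as reported, 2 and 0 in the first 2 of these fits and 2 to 294 with 1 library left out. The compared groups alone cannot be fitted there, since this difference uses all 4 groups. Between old and young control the number was 6, that is 5 partners and Cnot3, which has no test there because the same young controls chose it. It was 7 by DESeq2, 5 with median-of-ratios scaling and with no filter, and 4 by limma-voom. In the compared groups alone, without old control 1 and young control 3 together and with the Xist covariate it was 2, Cnot3 and Cnot1. With the mitochondrial covariate it was 0, under which 0 genes of the whole table passed, and with 1 library left out 2 to 6. Over all tested genes 740 passed as reported, 1295 by DESeq2, 738 and 987 with that scaling and with no filter, and 517 by limma-voom. The 3 fits that left Cnot3 and Cnot1 passed 541, 463 and 372 genes, and 315 to 886 passed with 1 library left out. The number of subunits was 0 under every alternative for old het against old control and for old het against young het. The cause of these shifts was not tested beyond these counts.

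Of 1309 values of single genes under alternatives, 1183 kept sign and side of the threshold, 87 lost and 7 gained the threshold, and 32 changed sign, all of them differences that passed in no fit. Only results that passed as reported can lose the threshold, so the 87 all fall on those. Between old and young control, of 21 alternatives each, Cnot6l lost it in 16, Cnot7 and Pum2 in 12 and Cnot6 in 10. Cnot10 lost it in 9, Dis3 in 7, Zfp36 in 6 and Cnot1 in 1, and the rest were values of Cnot3. Between young het and young control the sign of Cnot2 changed with no filter (0.038), by limma-voom (0.044), with the mitochondrial covariate (0.24) and with Xist (0.29), and ran from -0.25 to 0.28 with 1 library left out. Cnot4 was -0.15 with Xist and -0.14 to 0.61 with 1 library left out, and Cnot10 was 0.26 without old control 1 and young control 3 and -0.38 to 0.26 with 1 left out. Between old het and old control Cnot1 was -0.072 without that pair and -0.072 to 0.16 with 1 left out, and D1Bwg0212e was 0.028 without the pair, 0.048 with the mitochondrial covariate and -0.18 to 0.029 with 1 left out. In the difference between the ages Cnot2 was -0.14 with the mitochondrial covariate and -0.025 to 0.48 with 1 left out, and Cnot4 was -0.24 without the pair, -0.12 with the mitochondrial covariate and -0.039 to 0.71 with 1 left out. Between old het and young het Cnot6 was -0.29 with Xist and Cnot7 ran from -0.69 to 0.16 with 1 left out. No paired analysis was possible because the replicate numbers follow accession order and the labels give no shared numbers. Cnot7 and Cnot8, with 9 to 44 counts in each young control, are the subunits that depth limits most.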
